A study of Mus musculus with 4 samples.

Results

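Oligodendrocyte precursor cells (OPCs) are the dividing glial cells that give rise to myelinating oligodendrocytes and persist throughout the adult brain. They sense PDGF-AA through the receptor PDGFRα, carry the chondroitin sulfate proteoglycan NG2 (encoded by Cspg4), surround themselves with a proteoglycan-rich matrix and receive synaptic input from neurons. Adult OPCs differ between brain regions in how often they divide and differentiate and in the channels and receptors they carry. The nuclei described here were chosen by their UMI counts (unique molecular identifiers, each counting 1 captured RNA molecule). A nucleus was taken when Pdgfra, Cspg4, Vcan, Neu4 and C1ql1 together had at least 4 UMIs, with at least 1 of Pdgfra. It could carry at most 1 UMI of each of 4 exclusion sets. These were the oligodendrocyte genes Mog, Mag and Enpp6, the fibroblast genes Dcn, Slc6a13 and Col1a1, the neuron genes Rbfox3, Slc17a7, Slc17a6, Gad1 and Gad2, and the set of Csf1r, Cldn5 and Aqp4 from microglia, endothelium and astrocytes. Of 78728 nuclei in 4 libraries, 759 met the rule, which was 0.964%.

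The nuclei came from male C57BL/6J mice given a recombinant adeno-associated virus (AAV) by cisterna magna injection at 4 wk of age, whose brains were taken at 8 wk. AAV-VEGF-C encoded full-length mouse VEGF-C, a lymphangiogenic growth factor, and AAV-CTRL encoded a soluble VEGFR-3 fragment unable to capture it, so the control mice also carried a virus and its transgene. Brains of 5 mice were pooled for each AAV, and each pool gave 1 library labelled cortex and 1 labelled striatum, so that both region labels of an AAV share their mice. With 1 library per group no test was possible, nuclei are not replicates, and every interval below is a 95% interval for counting error alone.

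The 4 libraries held 17168 to 23724 nuclei with a median of 2272 to 2873 UMIs. OPC nuclei had a median of 2298 UMIs in cortex AAV-CTRL, 2221 in cortex AAV-VEGF-C, 2477 in striatum AAV-CTRL and 2858 in striatum AAV-VEGF-C, and held 351148, 376901, 641205 and 561533 UMIs in all. Levels are given per 1000000 of these summed UMIs (CPM), in this order of the libraries wherever 4 values are listed. They were not divided by gene length, so they compare 1 gene between libraries and not 1 gene with another. The label striatum went against a gene that marks its neurons. In the nuclei that were not OPCs, Ppp1r1b, which encodes the striatal protein DARPP-32, stood at 62.4, 74.8, 18.2 and 18.1 CPM. It was lower in the libraries labelled striatum, which are therefore named below by their label. Across libraries, 598 barcode sequences occurred more than once. Of the OPC nuclei 18 carried such a barcode, and 0 barcodes were shared between OPC nuclei of different libraries.

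The genes that chose the nuclei are given as a description. Pdgfra (chr5:75152292-75198215, + strand, GRCm38) stood at 1153, 1141, 1121 and 1095 CPM. Vcan, the matrix proteoglycan versican, stood at 806, 772, 1023 and 846 CPM and Cspg4 at 498, 456, 468 and 484 CPM. Neu4, a sialidase, had 222, 228, 264 and 337 CPM, and C1ql1, a secreted C1q-like protein, 293, 371, 251 and 271 CPM. Pdgfra and Cspg4 varied little between the libraries, and Neu4 and C1ql1 varied most. The OPC nuclei held 24.0 to 28.7% of all Pdgfra UMIs of their libraries.

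The label held on OPC genes that the rule did not use. The 18 genes of this marker list summed to 24542, 22635, 25982 and 23992 CPM in OPC nuclei, which was 936, 883, 707 and 697% of the level in all other nuclei of the same library, and none of the 18 was at 0 in any library. Lhfpl3, a tetraspan protein gene widely used to mark OPCs, was detected in 97.3 to 99.2% of OPC nuclei, and in 5.38 to 17.9% of mature oligodendrocyte nuclei. Tnr, which encodes the perineuronal matrix glycoprotein tenascin-R, was detected in 96.9 to 99.4% of OPC nuclei and in 12.8 to 16.6% of mature oligodendrocyte nuclei. Mature oligodendrocyte nuclei, used for comparison throughout, carried at least 4 UMIs of Mog and Mag, at most 1 of Pdgfra, Cspg4, Neu4 and C1ql1, and the same limits on the other sets. The lineage transcription factors were detected less often at this depth. Olig1 had a UMI in 49.7, 49.4, 51.8 and 68.2% of OPC nuclei, Olig2 in 24.5, 26.2, 31.1 and 37.4% and Sox10 in 40.8, 46.2, 40.5 and 51.8%. All 3 shares were highest in striatum AAV-VEGF-C, the library whose OPC nuclei were sequenced deepest. Sox10 had a UMI in 29.1 to 41.0% of mature oligodendrocyte nuclei, which also express it, but in 3.68 to 6.94% of astrocyte nuclei.

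**Figure D1:**
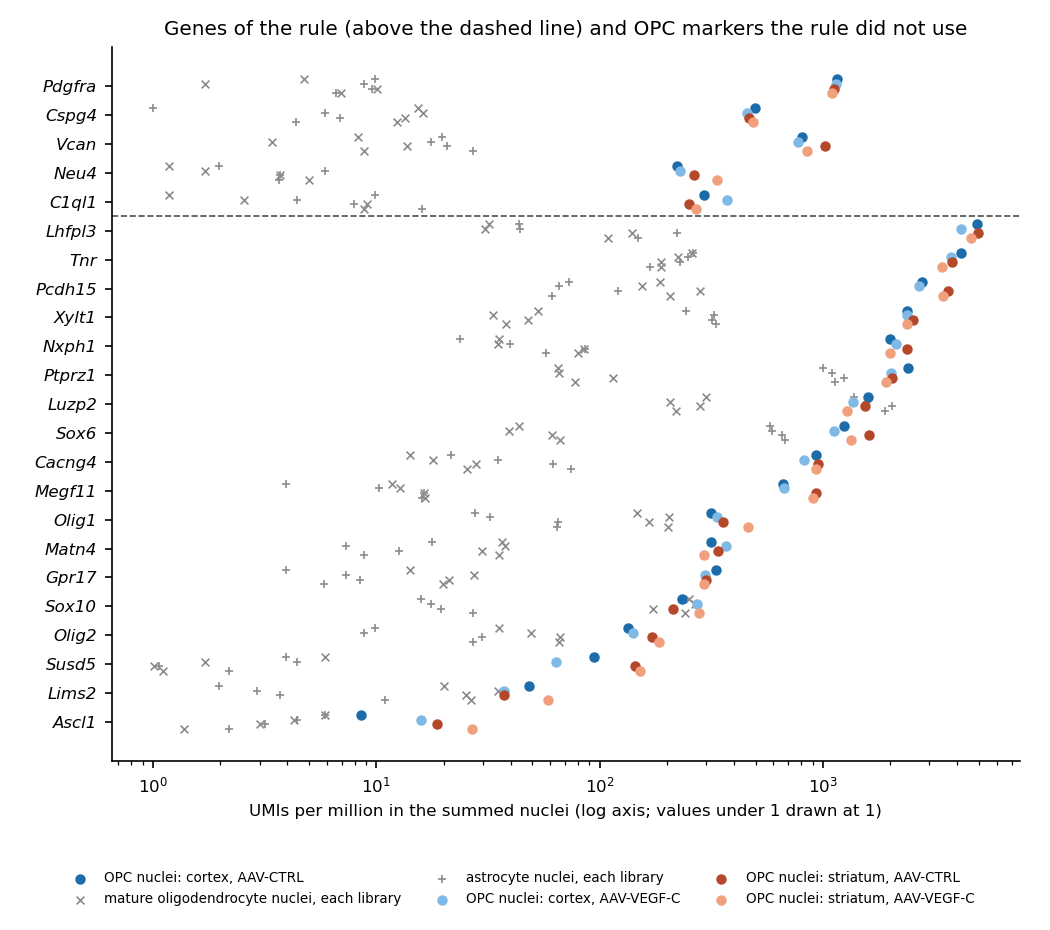
Levels of the 5 genes of the rule (above the dashed line) and of the 18 OPC markers outside it (below), in CPM on a log axis, with 1 coloured point per library for OPC nuclei, crosses for mature oligodendrocyte nuclei and plus signs for astrocyte nuclei. Most markers lie well to the right of both comparison cell types, while Sox10 overlaps the mature oligodendrocyte values, Luzp2 overlaps the astrocyte values, and Sox6 and Ptprz1 come near to them.

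At the threshold of the rule, nuclei that met all limits and carried 3 UMIs of the 5 genes (n = 101, just outside) had 16632 to 22703 CPM of the independent marker list, and those with 4 UMIs (n = 90, just inside) had 17191 to 23699 CPM. Nuclei with 1 UMI (n = 308) had 2991 to 4809 CPM and those with 8 or more (n = 355) had 24672 to 26887 CPM. The values on either side of the threshold overlapped. The limit on neuron genes removed more nuclei than any other: 1881 nuclei met the positive criteria, 971 of them carried more than 1 neuron UMI, and 40.4% were kept in all. Those removed by the neuron limit alone had 15656 to 18526 CPM of the independent markers, between OPC nuclei and all nuclei (2660 to 3861 CPM). They had 822 to 1094 CPM of the 5 neuron genes, against 794 to 1231 CPM in all nuclei and 203 to 268 CPM in the OPC nuclei. The limit was set on these 5 genes, so the difference between the removed nuclei and the OPC nuclei follows from the rule.

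OPC nuclei made up similar shares under both AAVs. They were 147 of 17168 nuclei in cortex AAV-CTRL (0.856%, exact binomial interval 0.724 to 1.01) and 160 of 20370 in cortex AAV-VEGF-C (0.785%, 0.669 to 0.916). In the libraries labelled striatum they were 257 of 23724 nuclei with AAV-CTRL (1.08%, 0.955 to 1.22) and 195 of 17466 with AAV-VEGF-C (1.12%, 0.966 to 1.28). The log2 ratio of AAV-VEGF-C over AAV-CTRL was -0.12 (-0.46 to 0.21) under the cortex label and 0.04 (-0.23 to 0.32) under the striatum label. Between region labels the log2 ratio of striatum over cortex was 0.34 (0.04 to 0.64) with AAV-CTRL and 0.51 (0.20 to 0.82) with AAV-VEGF-C. This region difference depended on the neuron limit, which was exceeded by 55.6 and 61.0% of the nuclei that met the positive criteria in the libraries labelled cortex and by 43.1 and 49.3% in those labelled striatum. Without it the shares were 1.88, 1.96, 1.84 and 2.14%, and the region log2 ratios -0.03 and 0.13.

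Relative to mature oligodendrocytes, OPC nuclei were less frequent in the libraries labelled striatum. There were 33.5 OPC nuclei per 100 mature oligodendrocyte nuclei in cortex AAV-CTRL, 26.9 in cortex AAV-VEGF-C, 18.2 in striatum AAV-CTRL and 12.6 in striatum AAV-VEGF-C. The log2 ratio between the region labels was -0.88 (-1.22 to -0.54) with AAV-CTRL and -1.09 (-1.43 to -0.75) with AAV-VEGF-C, and without the neuron limit it was -0.86 and -1.09. Between the AAVs it was -0.32 (-0.70 to 0.06) under the cortex label and -0.53 (-0.83 to -0.24) under the striatum label. The latter depended on the rule, at -0.14 when it was applied after thinning to 1000 UMIs and -1.12 with 0 UMIs of each exclusion set. Mature oligodendrocyte nuclei numbered 1410 with AAV-CTRL and 1545 with AAV-VEGF-C there, in libraries of 23724 and 17466 nuclei.

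**Figure D2:**
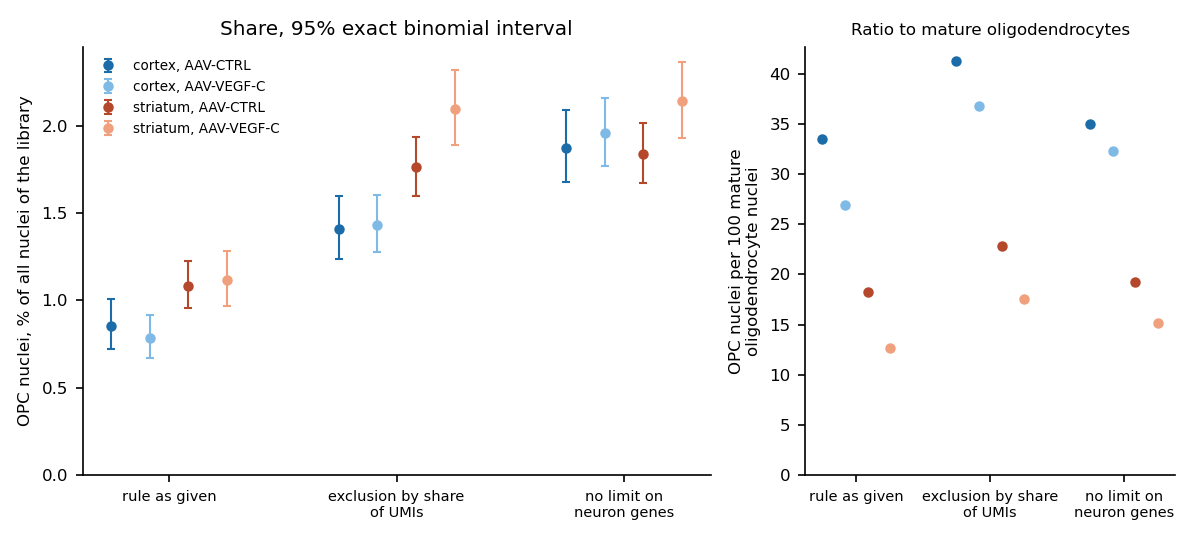
Left, OPC nuclei as a percentage of all nuclei of each library with 95% exact binomial intervals, under the rule as given, with exclusion limits set as a share of UMIs (at most 1 UMI or under 0.1%), and with no limit on neuron genes. Right, OPC nuclei per 100 mature oligodendrocyte nuclei under the same 3 settings. The libraries labelled cortex are lower on the left under the first 2 settings and not under the third, and are higher on the right under all 3.

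Genes were compared between libraries where at least 50 UMIs were counted in the OPC nuclei of both libraries together. For the region labels the fold used was 2. With AAV-CTRL 187 of 4308 genes were past it (4.34%), of which 1.83% were higher and 2.51% lower in the library labelled striatum. With AAV-VEGF-C 199 of 4212 were (4.72%), with 2.02% higher and 2.71% lower. Of 3909 genes compared under both AAVs, 80 were past 2-fold the same way in both with intervals that left out 0 (2.05%), 26 of them higher (0.665%) and 54 lower (1.38%) in the libraries labelled striatum. Most of these 80 genes were not strongly enriched in OPC nuclei. In 21 of the 26 and 48 of the 54, OPC nuclei had under 150% of the level of all other nuclei in every library. Among genes whose mean level in OPC nuclei was at least 2 times that in other nuclei, 14 of 411 (3.41%) were past 2-fold with AAV-CTRL and 13 of 402 (3.23%) with AAV-VEGF-C, and 4 met the condition under both: Itga9 and Col27a1, which were higher in the libraries labelled striatum, and Ltbp1 and Plppr5, which were lower.

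Itga9 (chr9:118606690-118901003, + strand, GRCm38) encodes integrin α9, a receptor for tenascins and other matrix proteins that has also been described to bind VEGF-C. It stood at 322, 239, 766 and 695 CPM in OPC nuclei, so that both libraries labelled striatum were above both labelled cortex. The log2 ratio was 1.25 (0.95 to 1.56) with AAV-CTRL and 1.54 (1.21 to 1.89) with AAV-VEGF-C. Other nuclei had 30.1, 31.4, 30.2 and 28.6 CPM, with no such order. An Itga9 UMI was found in 47.6, 42.5, 77.8 and 74.9% of OPC nuclei, and in 32.9, 22.5, 53.1 and 49.7% after every nucleus was thinned to 1000 UMIs, against 1.49 to 1.85% of mature oligodendrocyte and 1.20 to 4.21% of astrocyte nuclei before thinning. Under the settings of the rule and scaling that were run for genes, the log2 ratio with AAV-CTRL lay between 1.10 and 1.36. With AAV-VEGF-C it lay between 1.51 and 1.61. The lower minimum of rule UMIs, the rule after thinning and exclusion limits set as a share of UMIs were not run for genes.

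Col27a1 (chr4:63214004-63334991, + strand), a fibrillar collagen gene, stood at 11.4, 26.5, 92.0 and 80.1 CPM, and at 9.06, 7.40, 14.3 and 13.8 CPM in other nuclei. Its log2 ratios of striatum over cortex were 3.01 (1.58 to 4.94) and 1.59 (0.59 to 2.75). The first rests on 4 UMIs in cortex AAV-CTRL. It was detected in 2.72, 5.62, 20.6 and 20.0% of OPC nuclei and in 2.02 to 3.87% of mature oligodendrocyte and 2.70 to 6.84% of astrocyte nuclei, so that detection in OPC nuclei of the libraries labelled cortex was near that background. After thinning the shares were 1.37, 4.38, 7.81 and 4.15%, and the order of the libraries was kept only with AAV-CTRL.

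Ltbp1 (chr17:75005568-75392512, + strand) encodes a binding protein of latent TGF-β. It stood at 154, 111, 29.6 and 28.5 CPM in OPC nuclei and at 19.8, 19.5, 17.4 and 14.6 CPM in other nuclei. Its log2 ratios were -2.38 (-3.21 to -1.60) and -1.97 (-2.90 to -1.11). The share of OPC nuclei with a UMI was 27.2, 18.8, 6.23 and 7.18%, against 0.336 to 1.13% of mature oligodendrocyte nuclei and 12.6, 12.9, 6.12 and 4.62% of astrocyte nuclei. The astrocyte shares had the same order between the region labels and were near those of OPC nuclei under the striatum label. Plppr5 (chr3:117574836-117689507, + strand), a membrane protein gene of the lipid phosphatase-related family linked to process outgrowth, stood at 350, 305, 161 and 142 CPM, with log2 ratios of -1.12 (-1.52 to -0.74) and -1.10 (-1.53 to -0.67). Without the neuron limit the ratios were -0.91 and -0.91, under 2-fold. The level of Plppr5 in other nuclei had the same order, at 91.8, 85.5, 63.3 and 55.0 CPM. It was detected in 49.7, 48.1, 31.9 and 32.8% of OPC nuclei and in 31.5, 25.6, 14.1 and 16.1% after thinning, against 3.79 to 7.37% of astrocyte nuclei before it.

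**Figure D3:**
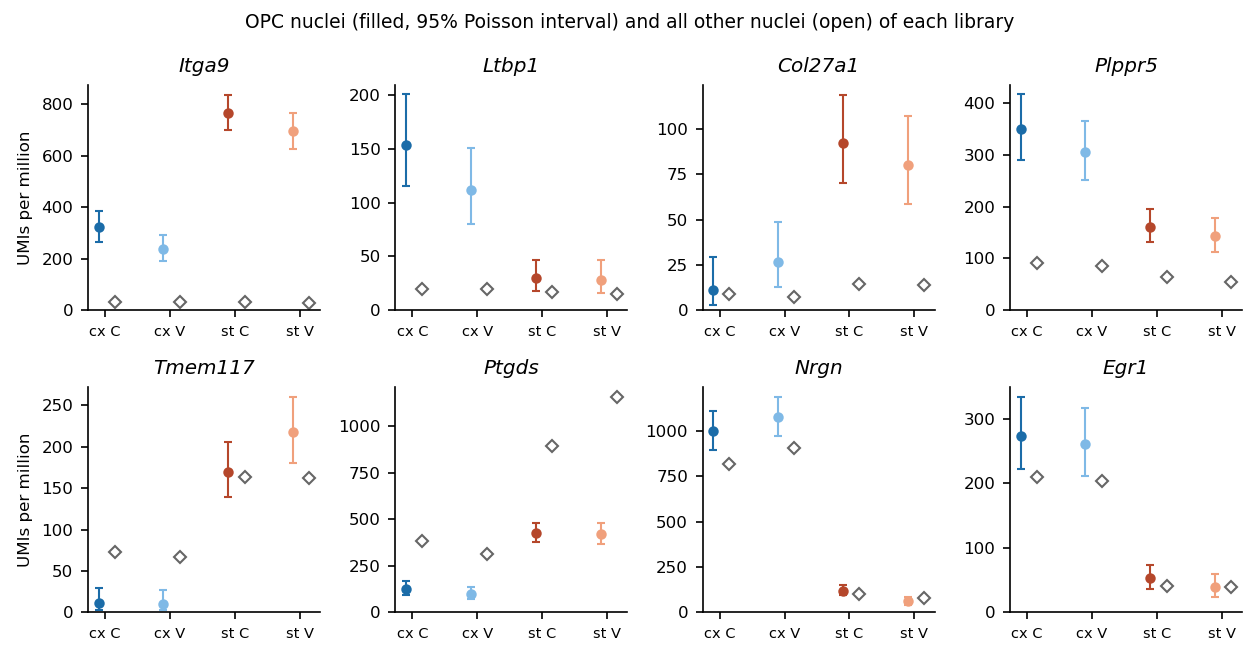
Levels of 8 genes in CPM, with filled points and 95% Poisson intervals for OPC nuclei and open diamonds for all other nuclei of the same library. cx and st stand for the libraries labelled cortex and striatum, C for AAV-CTRL and V for AAV-VEGF-C. For Itga9 the diamonds stay near 30 while the filled points differ between region labels, whereas for Tmem117, Ptgds, Nrgn and Egr1 the diamonds differ between region labels as well.

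Among genes above the other nuclei by less than 2 times, Vwc2, a secreted BMP antagonist, stood at 45.6, 50.4, 133 and 132 CPM and was past 2-fold in both pairs (log2 ratios 1.54 and 1.39), at 145 to 191% of other nuclei. Several genes further above the other nuclei were past 2-fold in 1 pair or in none. Ednrb, an endothelin receptor, stood at 234, 183, 106 and 118 CPM (log2 ratios -1.14 and -0.64), and Rnf43, a ubiquitin ligase that restrains Wnt signalling, at 159, 135, 82.7 and 73.0 CPM (-0.95 and -0.89). Both were lower in each library labelled striatum than in either labelled cortex, and both stood at more than 2 times the level of other nuclei in every library. Sema6d, a semaphorin, was lower in the same sense at 1148, 1016, 761 and 696 CPM. Higher there were Megf11, a phagocytic receptor family gene, at 661, 669, 930 and 903 CPM, Pcdh15, a protocadherin, at 2765, 2698, 3651 and 3453 CPM, and Kcnip3, a potassium channel-interacting protein, at 683, 679, 928 and 1010 CPM. In other nuclei Megf11 was higher there too, at 36.2, 38.6, 63.2 and 65.1 CPM, whereas Kcnip3 was lower, at 178, 173, 89.5 and 87.5 CPM. Sema3d, a secreted semaphorin, had 253, 207, 401 and 308 CPM, and Susd5, a hyaluronan-binding membrane protein, 94.0, 63.7, 143 and 151 CPM. Past 2-fold were Ednrb with AAV-CTRL and Susd5 with AAV-VEGF-C, whose log2 ratio was 1.25 (0.58 to 1.97), and the other ratios of these genes were smaller.

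The independent OPC markers as a list differed little between the region labels. Their sum was slightly higher under the striatum label, with log2 ratios of 0.082 (0.045 to 0.120) with AAV-CTRL and 0.084 (0.045 to 0.123) with AAV-VEGF-C. Intervals left out 0 for 5 higher and 2 lower markers with AAV-CTRL, and for 6 higher and 1 lower with AAV-VEGF-C. With AAV-CTRL 0 of 16 markers compared were past 2-fold and their median log2 ratio was 0.10, beside 0.02 over all genes compared. With AAV-VEGF-C 1 of 16 was past it (Susd5) and the median was 0.09, beside 0.03. The matrix and chondroitin sulfate list stood at 391 to 416% of other nuclei and had 4 higher and 1 lower of 20 genes with AAV-CTRL (median 0.07) and 2 higher and 1 lower of 19 with AAV-VEGF-C (0.09), beside 4.34 and 4.72% of all genes past 2-fold in either direction. The higher genes with AAV-CTRL included Sulf1, a heparan sulfate sulfatase, at 71.2, 79.6, 147 and 141 CPM, and Chst3, a chondroitin sulfotransferase, at 25.6, 29.2, 73.3 and 58.8 CPM, and Tnr stood at 4163, 3749, 3794 and 3421 CPM.

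The receptors and channels through which OPCs sense neuronal activity were detected broadly. The glutamate receptor list summed to 11511, 11003, 12664 and 11659 CPM, or 81.6 to 105% of other nuclei, with 1 higher and 3 lower of 24 genes with AAV-CTRL and 0 higher and 3 lower of 24 with AAV-VEGF-C, again beside 4.34 and 4.72% of all genes. Gria4, an AMPA receptor subunit, was the higher one, at 621, 613, 1269 and 1142 CPM (log2 ratios 1.03, 0.81 to 1.25, and 0.90, 0.68 to 1.12). In other nuclei Gria4 was higher under the striatum label too, at 562, 569, 765 and 693 CPM, so that OPC nuclei had 108 to 166% of their level. Grm5, the metabotropic receptor mGluR5, stood at 886, 889, 1405 and 1125 CPM. The lower ones were Grin2a, an NMDA receptor subunit at 196, 268, 57.7 and 81.9 CPM, Grin2b, another at 387, 406, 162 and 191 CPM, and Grm3 at 120, 119, 45.2 and 33.8 CPM. These 3 stood at 11.0 to 33.7% of the level of other nuclei in every library, and were lower there too in the libraries labelled striatum, Grm3 the least (360, 354, 295 and 264 CPM). Of the potassium channel list 2 of 22 genes were lower with AAV-CTRL and 0 with AAV-VEGF-C (medians 0.11 and -0.03). The GABA receptor list had 0 past 2-fold of 10 and of 11 genes (medians -0.15 and -0.09), and the sodium and calcium channel list had 1 lower of 16 in each (0.01 and -0.03). Of the synaptic adhesion list, 1 of 44 genes was lower with AAV-CTRL and 0 with AAV-VEGF-C (0.14 and 0.05). Of the guidance list, 1 of 21 was lower with AAV-CTRL and 1 higher and 1 lower of 20 with AAV-VEGF-C (0.20 and 0.09). Robo1, an axon guidance receptor, stood at 689, 613, 1087 and 983 CPM in OPC nuclei.

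The lists of lineage genes each had few members past 2-fold between the region labels, beside 4.34 and 4.72% of all genes. Of the lineage transcription factors 0 of 17 were past 2-fold with AAV-CTRL (median 0.17) and 1 higher and 1 lower of 21 with AAV-VEGF-C (0.13), while Sox6, which keeps OPCs undifferentiated, had 1247, 1125, 1611 and 1332 CPM. Of the growth factor list 1 of 12 and 1 of 9 were lower (0.12 and 0.28), in both cases the neuregulin Nrg1 at 601, 592, 278 and 280 CPM, which stood at 21.2 to 25.2% of other nuclei. Of the list of Notch, Wnt, BMP and Lingo brakes on differentiation, 1 of 11 and 1 of 9 were higher (0.13 and -0.37). That gene was Adgrg1, an adhesion receptor that keeps OPCs dividing, at 37.0, 45.1, 103 and 96.2 CPM, or 151 to 193% of other nuclei. Those nuclei had the same order, at 24.5, 23.3, 55.9 and 57.2 CPM.

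Transcripts of myelin and mature oligodendrocyte genes were higher in OPC nuclei of the libraries labelled striatum. Mbp, myelin basic protein, had 114, 103, 178 and 173 CPM, Trf, the transferrin of oligodendrocytes, 34.2, 31.8, 90.5 and 89.0 CPM, and Ptgds, a prostaglandin D synthase also made by the meninges, 125, 101, 427 and 422 CPM (log2 ratios 1.77, 1.31 to 2.26, and 2.07, 1.57 to 2.60). For these 3 genes, both libraries labelled striatum were above both labelled cortex. Of the myelin list, 3 of 10 genes were higher past 2-fold and 0 lower with AAV-CTRL (median 0.83), and 4 of 9 higher and 0 lower with AAV-VEGF-C (0.85), shares above the 4.34 and 4.72% over all genes. The other nuclei moved alongside: Ptgds in them stood at 382, 317, 897 and 1159 CPM, so that OPC nuclei had 31.9 to 47.6% of their level, and Mbp stood at 236.5, 229, 406 and 443 CPM, so that they had 39.0 to 48.2%. A list of 12 mature oligodendrocyte genes stood at 48.7, 48.8, 45.4 and 44.1% of other nuclei, at 984 to 2452 CPM in OPC nuclei against 2016 to 5563 CPM in the others. Of that list 4 of 8 genes were higher past 2-fold and 0 lower with AAV-CTRL (median 1.09), and 4 of 7 higher and 0 lower with AAV-VEGF-C (1.48). The part of RNA from other cells in the myelin difference was not tested.

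A second group with matching levels elsewhere was neuronal and activity-related. Nrgn, the neuronal calmodulin-binding protein neurogranin, stood at 997, 1075, 120 and 60.5 CPM in OPC nuclei (log2 ratios -3.05 and -4.15) and at 818, 905, 100 and 79.3 CPM in other nuclei. Egr1, an immediate early transcription factor, had 273, 260, 53.0 and 39.2 CPM (-2.37 and -2.73) beside 210, 204, 41.3 and 38.7 CPM. Mef2c, a transcription factor of cortical neurons and microglia, had 575, 727, 119 and 107 CPM at 53.0 to 65.5% of other nuclei. All 3 were lower in the libraries labelled striatum in OPC nuclei and in the rest alike. The immediate early list summed to 840, 785, 284 and 317 CPM, or 81.1 to 103% of other nuclei, and 1 of its 2 genes with enough UMIs, Egr1, was past 2-fold in each pair. A list of 12 neuronal genes stood at 36.0, 38.0, 31.1 and 31.9% of other nuclei (6413 to 7968 CPM against 20647 to 21318 CPM), and none of the 12 was at 0. Its part in these differences was not tested.

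Tmem117, a transmembrane protein gene, had the widest difference of the genes past the fold in both pairs. It stood at 11.4, 10.6, 170 and 217 CPM in OPC nuclei (3.90, 2.50 to 5.80, and 4.36, 2.96 to 6.25), with 4 UMIs in each library labelled cortex. In other nuclei it had 72.5, 66.8, 164 and 162 CPM, so that OPC nuclei were at 15.7 and 15.9% of other nuclei under the cortex label and at 104 and 134% under the striatum label. Without the neuron limit its log2 ratios were 2.74 and 2.14. Among the next genes, Calb2, the calcium buffer calretinin, had 11.4, 10.6, 79.5 and 103 CPM and Sparc, a matricellular glycoprotein, 17.1, 31.8, 104 and 110 CPM, at 110 to 160% and 24.0 to 69.7% of other nuclei.

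Some regional transcription factors also differed in OPC nuclei. Of a list of 43 non-telencephalic factors, 1 was higher and 1 lower of 4 compared with AAV-CTRL. With AAV-VEGF-C 0 were higher and 1 lower of 3, beside 4.34 and 4.72% of all genes. Its summed log2 ratios were 0.25 (-0.02 to 0.52) and 0.14 (-0.115 to 0.40). A list of 10 telencephalic factors had no gene with enough UMIs, and its summed log2 ratios were -1.26 (-1.91 to -0.63) and -1.34 (-2.04 to -0.66). Zic1, a zinc finger factor of dorsal and midline brain, had 8.54, 10.6, 103 and 80.1 CPM, on few UMIs under the cortex label. Tcf7l2, a Wnt effector that also marks thalamic and midbrain neurons, had 117, 162, 254 and 297 CPM, at 262 and 385% of other nuclei under the cortex label and at 85.6 and 89.1% under the striatum label. Meis2 was lower at 290, 326, 120 and 90.8 CPM, and in other nuclei it was lower as well, at 394, 406, 290 and 214 CPM. Irx1, Irx2 and Pax3, named after their values were seen, had 1 UMI each in cortex AAV-CTRL and 0 in cortex AAV-VEGF-C. They had 14, 18 and 9 UMIs in striatum AAV-CTRL, and 10, 13 and 18 in striatum AAV-VEGF-C. Irx2 and Pax3, homeobox factors of the midbrain and hindbrain, stood there at 281 and 270% of other nuclei with AAV-CTRL and at 276 and 704% with AAV-VEGF-C.

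**Figure D4:**
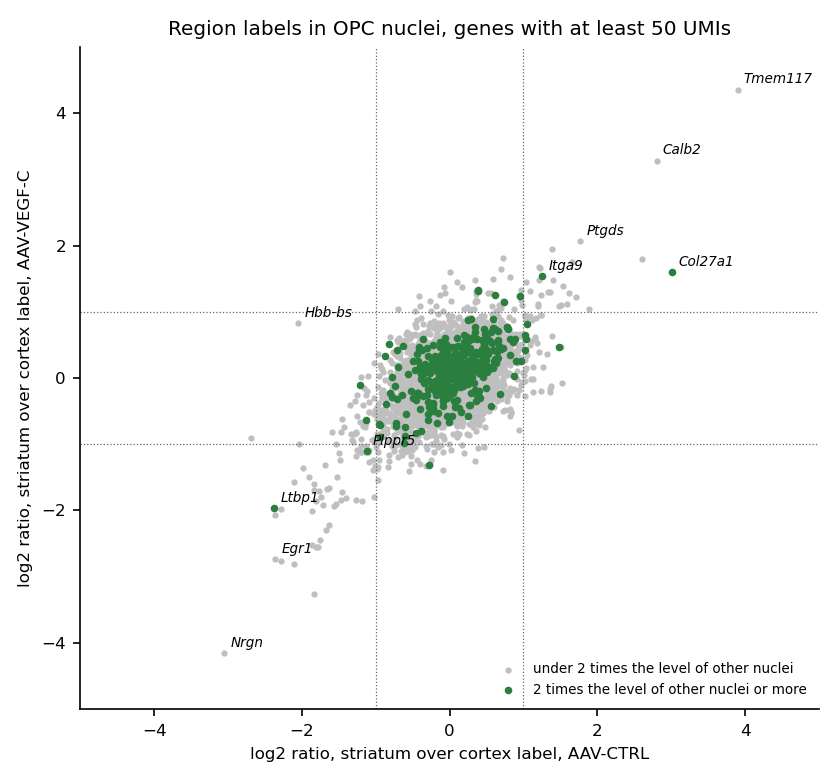
Log2 ratio of striatum over cortex label in OPC nuclei for each gene with at least 50 UMIs, with AAV-CTRL on the horizontal and AAV-VEGF-C on the vertical axis. Green points are genes with at least 2 times the level of other nuclei, grey points are the remaining genes and dotted lines mark 2-fold. Of the green points Itga9 and Col27a1 lie past the lines at the upper right and Ltbp1 and Plppr5 at the lower left.

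The AAVs differed in fewer genes that repeated. At 1.5-fold, 302 of 3269 genes were past it under the cortex label (9.24%), with 169 higher (5.17%) and 133 lower (4.07%) with AAV-VEGF-C, and 429 of 5092 under the striatum label (8.42%), with 251 higher (4.93%) and 178 lower (3.5%). Of 3205 genes compared under both labels, 11 were past 1.5-fold the same way in both with intervals that left out 0 (0.343%), 9 of them higher (0.281%) and 2 lower (0.0624%). Among genes with at least 2 times the level of other nuclei, 17 of 343 (4.96%) and 26 of 453 (5.74%) were past 1.5-fold, and 0 met the condition under both labels. In 8 of the 9 higher and in 1 of the 2 lower genes, OPC nuclei had under 150% of the level of other nuclei in every library.

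The 9 higher genes were Hivep3, Vps35, Shank1, Ndufa2, Ahi1, Rpl39, Uqcr10, Mpc2 and Rpl30. Hivep3, a zinc finger transcription factor, stood at 54.1, 98.2, 39.0 and 81.9 CPM, so that both libraries with AAV-VEGF-C were above both with AAV-CTRL. It was at 16.7, 31.2, 15.5 and 33.6% of other nuclei. Its log2 ratios were 0.86 (0.02 to 1.74) under the cortex label and 1.07 (0.34 to 1.84) under the striatum label, on 19 to 46 UMIs a library. Vps35, the core of the retromer sorting complex, had 59.8, 119, 56.1 and 102 CPM (1.00, 0.22 to 1.82, and 0.85, 0.23 to 1.5). Ndufa2, a subunit of respiratory complex I, had 99.7, 162, 73.3 and 160 CPM (0.70, 0.08 to 1.34, and 1.13, 0.60 to 1.67). The 2 lower genes were Mertk, a receptor for phagocytosis found mostly on astrocytes and microglia, at 148, 90.2, 112 and 73.0 CPM (-0.72, -1.38 to -0.06, and -0.62, -1.21 to -0.05), and Safb, a scaffold attachment factor, at 108, 55.7, 112 and 73.0 CPM. For both lower genes each library with AAV-VEGF-C was below each with AAV-CTRL. With at least 6 UMIs of the rule 3 of the 11 remained, with 0 UMIs of each exclusion set 0 remained, and without the neuron limit 0 remained.

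Rpl39 and Rpl30 encode ribosomal proteins, and Ndufa2 and Uqcr10 belong to the respiratory chain. The 84 ribosomal protein genes, summed after these values were seen, stood at 12465, 15598, 12278 and 15794 CPM in OPC nuclei, with log2 ratios between the AAVs of 0.32 and 0.36. In other nuclei the same sum was 10531, 12806, 12259 and 15297 CPM, with log2 ratios of 0.28 and 0.32. The 80 nuclear genes of the respiratory chain had log2 ratios of 0.22 and 0.26 in OPC nuclei, and 0.22 and 0.26 in other nuclei. The 13 genes of the mitochondrial genome had 0.39 and 0.27, and 0.42 and 0.30 in other nuclei. All 3 sums were higher with AAV-VEGF-C in OPC nuclei and elsewhere by similar ratios, and whether this follows the virus or the handling of the 2 pools cannot be told apart.

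**Figure D5:**
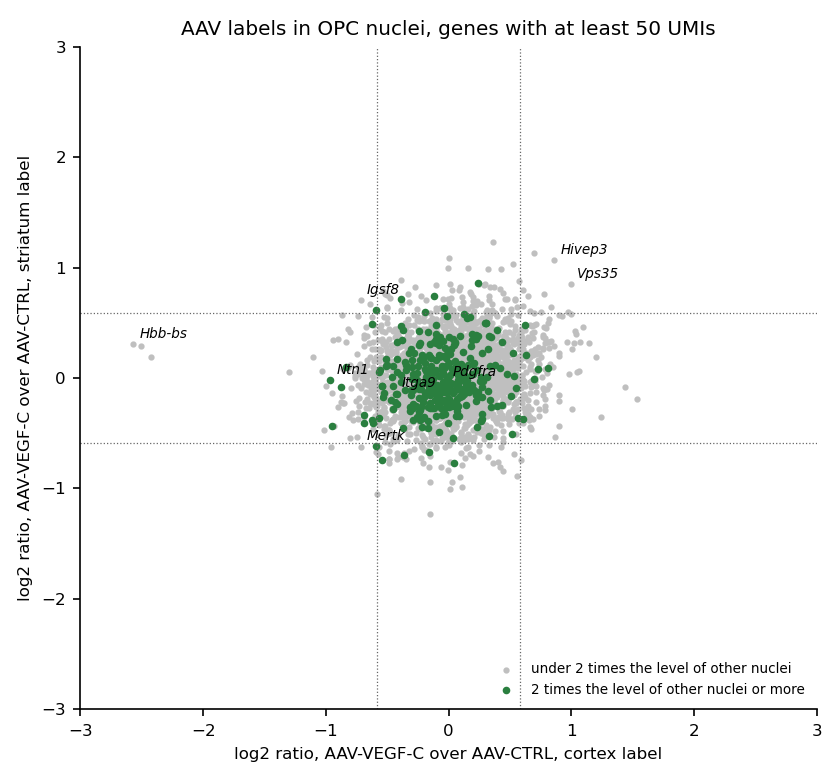
Log2 ratio of AAV-VEGF-C over AAV-CTRL in OPC nuclei for each gene with at least 50 UMIs, with the cortex label on the horizontal and the striatum label on the vertical axis. Green points are genes with at least 2 times the level of other nuclei, grey points are the remaining genes and dotted lines mark 1.5-fold. No green point lies past both lines in the same direction with its intervals off 0, Pdgfra sits near the centre and Igsf8 in the upper left.

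Between the AAVs the OPC markers outside the rule that could be compared stayed within 1.5-fold with 1 exception, Lims2. Of all genes compared, 9.24 and 8.42% were past it. Under the cortex label 0 of 16 were past it (median log2 ratio -0.09, beside 0.00 over all genes compared) and under the striatum label 1 of 17 was (median -0.08, beside 0.01). The sum of the 18 markers was slightly lower with AAV-VEGF-C, at -0.117 (-0.160 to -0.073) and -0.115 (-0.148 to -0.082). Intervals left out 0 for 4 lower and 0 higher markers under the cortex label, and for 5 lower and 2 higher under the striatum label. Lims2, a focal adhesion adaptor, had 17, 14, 24 and 33 UMIs, and its log2 ratio under the striatum label was 0.65 (-0.15 to 1.47). Lhfpl3 had 4907, 4152, 4967 and 4628 CPM and Gpr17, a receptor of early differentiating OPCs, 333, 297, 301 and 294 CPM. Xylt1, which starts glycosaminoglycan chains, had 2372, 2385, 2544 and 2376 CPM, and Ptprz1, a receptor phosphatase proteoglycan, 2409, 2008, 2032 and 1925 CPM. Olig1 stood at 316, 337, 356 and 463 CPM and Matn4, a matrilin, at 316, 369, 340 and 294 CPM.

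Most of the other lists of OPC functions had few genes past the fold. Over all genes compared, 9.24% were past 1.5-fold under the cortex label and 8.42% under the striatum label. The list of choroid plexus, ependymal and blood genes had 4 lower of 6 under the cortex label (median -2.35) and 1 higher of 5 under the striatum label (0.29), the 4 being globin genes that are described with the markers of other cells. Of the lineage transcription factors 1 of 18 was lower under the cortex label, the repressor Zfp536 at 211, 138, 203 and 201 CPM, and 0 of 21 were past 1.5-fold under the striatum label (medians -0.02 and -0.01). Of the growth factor list 1 of 7 was lower under the cortex label, the neuregulin Nrg2 at 177, 87.6, 198 and 142 CPM (-1.01, -1.67 to -0.38), and 1 of 13 was higher and 1 lower under the striatum label (-0.04 and -0.16). The lower one was Pdgfd, a PDGF ligand, at 34.2, 2.65, 62.4 and 24.9 CPM, with -1.32 (-2.32 to -0.41) under the striatum label. In the guidance list Ntn1, which encodes netrin-1, was lower past 1.5-fold under the cortex label, at 228, 117, 296 and 292 CPM (-0.96, -1.53 to -0.42, against -0.02, -0.33 to 0.29, under the striatum label), and the difference between these ratios was not tested. Ntn1 was more abundant in OPC nuclei than elsewhere, at 898 to 1506% of other nuclei. In the same list Robo2, an axon guidance receptor, had 62.7, 149, 79.5 and 62.3 CPM and Sema4d 54.1, 47.8, 21.8 and 69.5 CPM (1.67, 0.76 to 2.67, under the striatum label). The list as a whole had 1 higher and 1 lower of 17 and of 24 genes (medians -0.13 and -0.04).

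Of the matrix list 2 of 17 genes were lower under the cortex label, Chsy3 and Csgalnact1, both of chondroitin sulfate synthesis, and 0 of 24 were past 1.5-fold under the striatum label (medians -0.06 and -0.10). These counts and those of the lists below stand beside 9.24 and 8.42% of all genes past 1.5-fold in either direction. Csgalnact1 stood at 205, 135, 217 and 171 CPM and Chsy3 at 103, 53.1, 99.8 and 90.8 CPM, the latter at 15.5 to 62.8% of other nuclei. The glutamate receptor list had 0 of 23 past the fold under either label (-0.03 and -0.08), the GABA receptor list 0 of 10 and 1 of 12 (-0.04 and 0.07) and the potassium channel list 1 higher of 21, and 1 higher and 1 lower of 23 (-0.01 and 0.01). The synaptic adhesion list had 1 higher of 43 and 2 higher of 44 (0.01 and -0.07). In the myelin list Cnp, a myelin phosphodiesterase, was higher under the cortex label at 79.7, 138, 156 and 214 CPM (0.79, 0.10 to 1.51), and 1 of 10 genes, Cldn11 of the myelin tight junctions, was lower under the striatum label (list medians 0.05 and 0.02). Of the differentiation brakes 0 of 7 and 2 lower of 11 were past 1.5-fold (-0.07 and -0.17), and of the sodium and calcium channels 0 of 14 and 0 of 16 (-0.10 and -0.10). The stress and hypoxia list had 1 higher of 9 and 1 lower of 13 (0.02 and -0.11), with Atf4, a stress-response transcription factor, at 48.4, 103, 60.8 and 83.7 CPM and Fkbp5, a glucocorticoid-induced chaperone, at 42.7, 37.1, 56.1 and 24.9 CPM.

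The receptors of VEGF-C were at the limit of detection in OPC nuclei. Flt4, which encodes VEGFR-3, had 0, 0, 2 and 1 UMIs and Kdr, which encodes VEGFR-2, 1, 0, 2 and 3 UMIs in the 4 libraries. A count of 0 allows up to 3 UMIs, which is 8.54 CPM in cortex AAV-CTRL and 7.96 CPM in cortex AAV-VEGF-C. Nrp2, a co-receptor, stood at 74.0, 74.3, 67.1 and 67.7 CPM and Nrp1 at 22.8, 23.9, 28.1 and 39.2 CPM, or 20.4 to 42.1% of other nuclei. Vegfc itself had 1, 6, 4 and 9 UMIs, with log2 ratios between the AAVs of 2.48 (-0.56 to 8.01) and 1.36 (-0.48 to 3.51), so that a difference was not detectable at this depth. Vegfa had 79.7, 55.7, 74.9 and 55.2 CPM and stood at 180 to 339% of other nuclei. Ccbe1, which promotes VEGF-C processing, had 19, 18, 5 and 5 UMIs, and Adamts3, the protease that cleaves VEGF-C, 42.7, 45.1, 29.6 and 41.0 CPM. Flt1, an endothelial receptor, had 19, 3, 13 and 7 UMIs, and 1 nucleus of cortex AAV-CTRL held 11 of its 19. Of the list of 13 genes only Itga9 was past a fold among those with enough UMIs, between the region labels and not between the AAVs (-0.43, -0.85 to -0.02, and -0.14, -0.34 to 0.05).

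Among neurotrophin receptors, Ntrk2, which encodes the BDNF receptor TrkB, stood at 644, 555, 650 and 591 CPM, and Ntrk3, which encodes TrkC, at 672, 541, 694 and 727 CPM. None of the 5 genes of this list with enough UMIs was past 1.5-fold between the AAVs (medians -0.19 and 0.05), and between region labels Sort1, the sorting receptor sortilin, was lower past 2-fold in 1 pair, at 94.0, 92.9, 48.3 and 39.2 CPM and 28.1 to 44.8% of other nuclei. Of all genes 9.24 and 8.42% were past the fold between the AAVs and 4.34 and 4.72% between region labels. Ngfr had 0, 0, 2 and 1 UMIs and Bdnf 14, 14, 12 and 7.

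Genes of the first steps of differentiation were detected in these nuclei, of which the rule limited Enpp6. Bcas1, a marker of newly forming oligodendrocytes, stood at 447, 403, 415 and 354 CPM, and Itpr2, a calcium channel of the same stage, at 342, 374, 315 and 317 CPM. Of the commitment list 0 of 10 and 0 of 11 genes were past 1.5-fold between the AAVs (medians -0.13 and 0.01), and between region labels 1 of 10 was higher with AAV-CTRL, Tcf7l2, and 0 of 10 with AAV-VEGF-C (-0.10 and 0.12). Over all genes the shares past the fold were 9.24 and 8.42% between the AAVs and 4.34 and 4.72% between region labels. Nuclei with at least 3 UMIs of Bmp4, Gpr17, Bcas1, Itpr2, Tcf7l2, Myrf and Cnksr3 were 53.1% (44.7 to 61.3), 50% (42.0 to 58.0), 59.9% (53.7 to 66.0) and 66.2% (59.0 to 72.8) of OPC nuclei. This is a range of a score and not a cell type. After thinning to 1000 UMIs the shares were 11.6, 16.3, 14.5 and 17.1%, beside 7.60, 7.82, 10.2 and 8.85% of mature oligodendrocyte nuclei. Of the genes of this score, Bmp4 and Myrf had 2 to 7 and 4 to 10 UMIs a library. The log2 ratio of the thinned share was 0.48 (-0.46 to 1.46) and 0.24 (-0.48 to 0.96) between the AAVs and 0.31 (-0.55 to 1.23) and 0.07 (-0.71 to 0.87) between the region labels.

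Nuclei with cell cycle transcripts were fewer. Nuclei with at least 3 UMIs from at least 2 of 32 cell cycle genes were 11 of 147 (7.48%, 3.79 to 13.0), 11 of 160 (6.88%, 3.48 to 12), 13 of 257 (5.06%, 2.72 to 8.49) and 10 of 195 (5.13%, 2.49 to 9.23). The same score was met by 0.683 to 1.17% of mature oligodendrocyte nuclei and by 4.74, 3.03, 1.68 and 3.47% of astrocyte nuclei. The first and the last of the astrocyte shares lie inside the interval of the OPC nuclei of their library, so the score alone is not read as division. After thinning, 4, 5, 2 and 3 OPC nuclei remained (0.781 to 3.13%, against 0 to 0.383% of astrocyte nuclei), and every interval between groups included 0. Mki67 had 4, 7, 4 and 3 UMIs and Top2a 3, 9, 9 and 11, too few to compare at this depth. The 32 cell cycle genes summed to 407, 440, 310 and 326 CPM in OPC nuclei and to 147, 148, 160 and 146 CPM in other nuclei. In OPC nuclei the log2 ratios of striatum over cortex were -0.39 (-0.71 to -0.07) with AAV-CTRL and -0.43 (-0.75 to -0.12) with AAV-VEGF-C. Between the AAVs they were 0.11 (-0.22 to 0.45) and 0.07 (-0.23 to 0.37). Whether the sum follows division was not tested.

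Against the nearest cell types, 156 of 1219 genes with at least 50 UMIs in the OPC nuclei of each library were higher past 4-fold than in mature oligodendrocyte nuclei in all 4 libraries, led by Pdgfra, Vcan, Emid1, Neu4 and Megf11. Emid1, an extracellular matrix gene outside the rule, stood at 373, 425, 309 and 378 CPM in OPC nuclei, and at 5.90, 3.41, 2.68 and 2.76 CPM in mature oligodendrocyte nuclei. In the other direction 186 of 3637 genes were lower, led by St18, a transcription factor of mature oligodendrocytes, which had 2114, 1926, 2337 and 2126 CPM in them and 25.6, 34.5, 32.8 and 23.2 CPM in OPC nuclei, and Prr5l, a regulator of mTORC2, which had 1676, 1399, 2319 and 2074 CPM there and 37.0, 18.6, 34.3 and 32.1 CPM in OPC nuclei. Sec14l5, C030029H02Rik and Gm4593 completed the first 5.

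Against astrocyte nuclei, taken by at least 4 UMIs of Aqp4, Gja1 and Slc39a12, 112 of 1219 genes were higher past 4-fold in all 4 libraries, led by Pdgfra, Cspg4, Megf11, Neu4 and Gpr17. The genes lower in OPC nuclei, 165 of 2230, were led by 1700007G11Rik, Aqp4, Dnah12, Spag16 and Slc39a12. Aqp4, the water channel of astrocytes and a gene of both rules, had 19.9, 2.65, 29.6 and 8.90 CPM in OPC nuclei against 943, 788, 1148 and 790 CPM. Slc39a12, a zinc transporter, had 14.2, 5.31, 12.5 and 12.5 CPM against 394, 380, 618 and 572 CPM. Dnah12 and Spag16 are genes of motile cilia, so the astrocyte nuclei also held nuclei that express such genes. Since the comparison nuclei were chosen on counts from the same libraries, these ratios are a description.

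Markers of further cell types were low in OPC nuclei with 3 exceptions. The rule itself limits Csf1r, Cldn5, Aqp4, Dcn, Slc6a13 and Col1a1, so low values of these genes follow from it. The part of such genes in the lists was not separated. The endothelial list stood at 25.1, 16.4, 17.4 and 11.2% of other nuclei, the microglial list at 47.3 to 77.9%, and the fibroblast list at 42.4 to 76.6%. The astrocyte list stood at 133 to 183%, with Gpc5, a glypican at 2970, 2850, 2240 and 2062 CPM, giving the most UMIs, while Gja1 had 45.6, 26.5, 51.5 and 35.6 CPM. The mural list stood at 160 to 215%, and Cspg4, a gene of the rule, carried most of it, with Rgs5 and the other mural genes under 50 CPM. The list of choroid plexus, ependymal and blood genes stood at 106% in cortex AAV-CTRL and at 50.6 to 64.6% in the other libraries. Hbb-bs, a β-globin gene, had 834 CPM in cortex AAV-CTRL and 141, 201 and 249 CPM in the others. A single nucleus held 235 of its 293 UMIs, and without that nucleus the level was 167 CPM, beside 123, 196 and 242 CPM in the others without their highest nucleus.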

How the data were processed

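Single-nucleus RNA was measured in 4 libraries, 1 for each pair of region and AAV label. The values are UMI counts of genes per nucleus, deposited by the authors as Cell Ranger matrices of called nuclei, with no normalization. The file headers name Cell Ranger 5.0.1 and the submitters' processing notes Cell Ranger 5.1.1, with build mm10. Neither the gene annotation nor the treatment of intronic reads is given in the sources used here, and both can change the counts of a gene. The filters, integration and clusters of the study were not used here.

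Nuclei were chosen by the rule in the text. The members and the gene lists were chosen with earlier results of these data known. UMI counts were summed per library over the nuclei of a kind and scaled to a sum of 1000000 (CPM). Shares have exact binomial (Clopper-Pearson) intervals, levels exact Poisson intervals, and ratios exact conditional binomial intervals, all 95% and covering counting error only. A gene at 0 was set to 3 UMIs in a ratio. No p-values were computed, since each group is 1 library from pooled mice, and "past the fold" is a size and not a test. Genes entered a comparison with at least 50 UMIs over its 2 libraries.

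Genes were named by a rule: the genes of the rule for nuclei, the independent OPC markers, the VEGF-C and neurotrophin lists; up to 4 genes of highest level in every other list; list genes past 1.5-fold with an interval off 0 in 1 pair; up to 10 genes each way that were past the fold with intervals off 0 in both pairs; and 5 genes each way against each comparison cell type. Genes outside it were chosen after their values were seen: Ppp1r1b in other nuclei, Irx1, Irx2, Pax3, Cldn11, Igsf8, Bmp4, Myrf, Mki67, Gja1, Rgs5 and the globin gene. The fraction of doublets was limited by the exclusion sets, and nuclei over 3 times the median UMIs of their library were left out in an alternative. That alternative removed no OPC nucleus, so it cannot bear on doublets among them. Coordinates are from GENCODE M21 (GRCm38, the same build as mm10). Some genes are not reported here. The scripts were tested on simulated data. Python 3.11.15, numpy 2.4.6, scipy 1.17.1, pandas 2.3.3 and matplotlib 3.10.9 were used.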

Additional observations from a re-analysis of the deposited data

Results flagged for a closer look

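Igsf8, which encodes an immunoglobulin superfamily protein that partners with tetraspanins, differed between the AAVs in opposite directions under the region labels. Under the cortex label it stood at 139.5 CPM with AAV-CTRL and 84.9 CPM with AAV-VEGF-C in OPC nuclei, and under the striatum label at 79.5 and 130 CPM. In other nuclei the 4 values were 115, 121, 112 and 123 CPM. The log2 ratio of AAV-VEGF-C over AAV-CTRL was -0.72 (-1.41 to -0.04) under the cortex label and 0.71 (0.17 to 1.25) under the striatum label. With 1 library per group the difference was not tested. It was 1 of 3205 genes compared under both labels that was past 1.5-fold with intervals off 0 in opposite directions.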

How the results depend on the processing

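The share of OPC nuclei followed the rule. With at least 3 UMIs of the rule the share in cortex AAV-VEGF-C was 0.943%. In the order of the report the shares were 0.582, 0.535, 0.797 and 0.95% with at least 6 UMIs, 0.239, 0.241, 0.375 and 0.252% with 0 UMIs of each exclusion set, and 1.25, 1.14, 1.39 and 1.57% with the rule at 2 UMIs after thinning to 1000 UMIs. Of the settings chosen after seeing the data, exclusion limits set as a share of UMIs gave 1.41, 1.43, 1.76 and 2.10%, and no neuron limit gave 1.88, 1.96, 1.84 and 2.14%. The log2 ratio of shares between region labels was then -0.029 with AAV-CTRL, a reversal, and 0.13 with AAV-VEGF-C without the neuron limit. It was 0.65 and 0.067 with 0 exclusion UMIs and 0.83 with AAV-VEGF-C at 6 UMIs, and the AAV ratio under the striatum label was -0.57 with 0 exclusion UMIs. Per mature oligodendrocyte nucleus the AAV ratio under the striatum label was -1.12 with 0 exclusion UMIs and -0.14 after thinning, and the region ratio with AAV-VEGF-C was -1.54 and -0.74. The other 24 of 28 values of this ratio moved by less than the counting interval.

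The share past the commitment threshold was 74.1, 66.3, 75.9 and 87.2% with at least 2 UMIs, 11.6, 16.3, 14.5 and 17.1% after thinning, and 54.5% in striatum AAV-VEGF-C with 0 exclusion UMIs, and its AAV log2 ratio under the cortex label was 0.48 after thinning. The cycling share was 2.74, 3.13, 0.781 and 1.55% after thinning, 14.4, 8.95 and 15.4% with at least 2 UMIs in the libraries other than cortex AAV-CTRL, 14.6% in cortex AAV-CTRL with 0 exclusion UMIs, and 9.36% in striatum AAV-VEGF-C without the neuron limit. Its AAV log2 ratio under the cortex label was -1.84 with 0 exclusion UMIs.

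Counts of genes past a fold followed the number of UMIs. With a minimum of 20, then 100 UMIs a gene, they were 1370 and 61 (AAV, cortex label), 1545 and 102 (AAV, striatum label), 759 and 62 (region, AAV-CTRL) and 712 and 63 (region, AAV-VEGF-C). With 0 exclusion UMIs they were 91, 154, 71 and 42, and among genes at 2 times other nuclei 17, 26, 14 and 13. Without the neuron limit they were 500 for the AAV under the cortex label, and 352 and 440 for the region labels. Past the fold in both AAV pairs were 2 genes with 0 exclusion UMIs, 0 of those at 2 times other nuclei, 4 at 100 UMIs and 7 at 6 rule UMIs. In both region pairs there were 11, 4, 33 and 45, with 172 at 20 UMIs and 197 without the neuron limit. Of the 80 region genes 80 remained under median-ratio scaling and 73 with each nucleus scaled alone, and of the 11 AAV genes 9 and 8 remained. With 6 rule UMIs, without the neuron limit and with 0 exclusion UMIs, 41, 57 and 9 of the 80 remained, and 3, 0 and 0 of the 11. List medians moved beyond their interval or the sign in 9 of 486 cases: OPC markers between region labels with AAV-VEGF-C (-0.017 with 0 exclusion UMIs, 0.34 without the neuron limit), glutamate receptors with AAV-CTRL (0.28 without it), growth factors with AAV-CTRL (-0.072 and 0.34), myelin genes between the AAVs under the cortex label (-0.49 and -0.29) and between region labels with AAV-VEGF-C (1.72 with 0 exclusion UMIs), and neurotrophins with AAV-VEGF-C (0.46 with 0 exclusion UMIs). Of single named genes 2672 of 2785 values kept within their interval, but part of these could not move. The minimum of UMIs a gene and the level against other nuclei change which genes are compared and not their ratios. Leaving out nuclei over 3 times the median UMIs removed no OPC nucleus, so it could move neither a ratio nor a list median. Chsy3 (0.13) and Zfp536 (0.061) between the AAVs under the cortex label reversed without the neuron limit. The cause of these changes was not tested beyond the smaller or larger number of nuclei and genes that each setting leaves. No paired analysis was possible because each group is 1 library and no result comes from a test, and for the same reason no library could be left out. At 50 UMIs a gene, depth limits the receptors of VEGF-C, the neurotrophin ligands and the cell cycle genes.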
